A study of Saccharomyces cerevisiae with 3 samples.

Results

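The genes described here encode the enzymes that turn glucose into ethanol in budding yeast, Saccharomyces cerevisiae, with 3 transcription factors that activate them. They are 33 genes chosen by name, among 6284 gene names on the arrays, and every one of them was found as a single row. Messenger RNA was measured on 3 NimbleGen oligonucleotide arrays of 1 colour, with 15 pairs of perfect-match and mismatch probes per gene. All 3 arrays carried RNA of BY4742, a haploid laboratory strain of mating type alpha with deletions in HIS3, LEU2, LYS2 and URA3. The control cells grew at 0.1 MPa, atmospheric pressure, and 24 °C. High pressure was 25 MPa, also at 24 °C, and low temperature was 15 °C, also at 0.1 MPa, and each lasted 5 h. No 5 h incubation is stated for the control, so time in culture and treatment cannot be told apart. Each array carried a pool of equal RNA amounts from 3 cultures, which leaves 1 array per condition, no replicate and no test of any difference. Precision is limited by there being 3 arrays, and both treated arrays were compared with the same control array.

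Glycolysis splits a hexose into pyruvate with a net gain of ATP. Fermentation then turns pyruvate into acetaldehyde and ethanol, which restores the NAD+ that glycolysis uses. Yeast does this at a high rate even in air when glucose is plentiful, and the enzymes of the main route are among its most abundant proteins. Most steps have a major isoenzyme used on glucose and 1 or more minor forms that glucose represses or that serve other states of growth.

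Levels are given as the robust multiarray average (RMA), a log2 level fitted over the probes of a gene. On this scale the main route lay close to the control. Of the minor forms that could be measured on all 3 arrays, HXK1 and ADH5 lay far above it in both comparisons. GLK1 was past 1.5-fold in the cold alone, and TDH1, TDH2, ENO1, PDC6, ADH3 and ADH4 in neither. Past 1.5-fold, 18.8% of the members were higher under pressure and 28.1% in the cold, against 28.1% and 34.8% of all genes. The 12 brightest members, among them TDH3, ENO2, PDC1 and ADH1, were within 1.5-fold of the control both under pressure and in the cold. In the cold this rests on the scaling. By probe brightness without RMA 7 of the 12 were higher, and with each array centred on its median 7 were lower. Over all genes the median log2 ratio in the cold was 0.41 and -0.29 by these measures. Few bright genes were past 1.5-fold by RMA: of the 126 at or above the 98th percentile of the control array, 15.1% were under pressure and 11.9% in the cold. HXK1, the second hexokinase, was 3.51-fold higher under pressure and 8.37-fold higher in the cold. ADH5, a minor alcohol dehydrogenase, was 3.29-fold and 3.74-fold higher. The plot of levels by array shows both sets, with the main route gathered at the right.

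**Figure D1:**
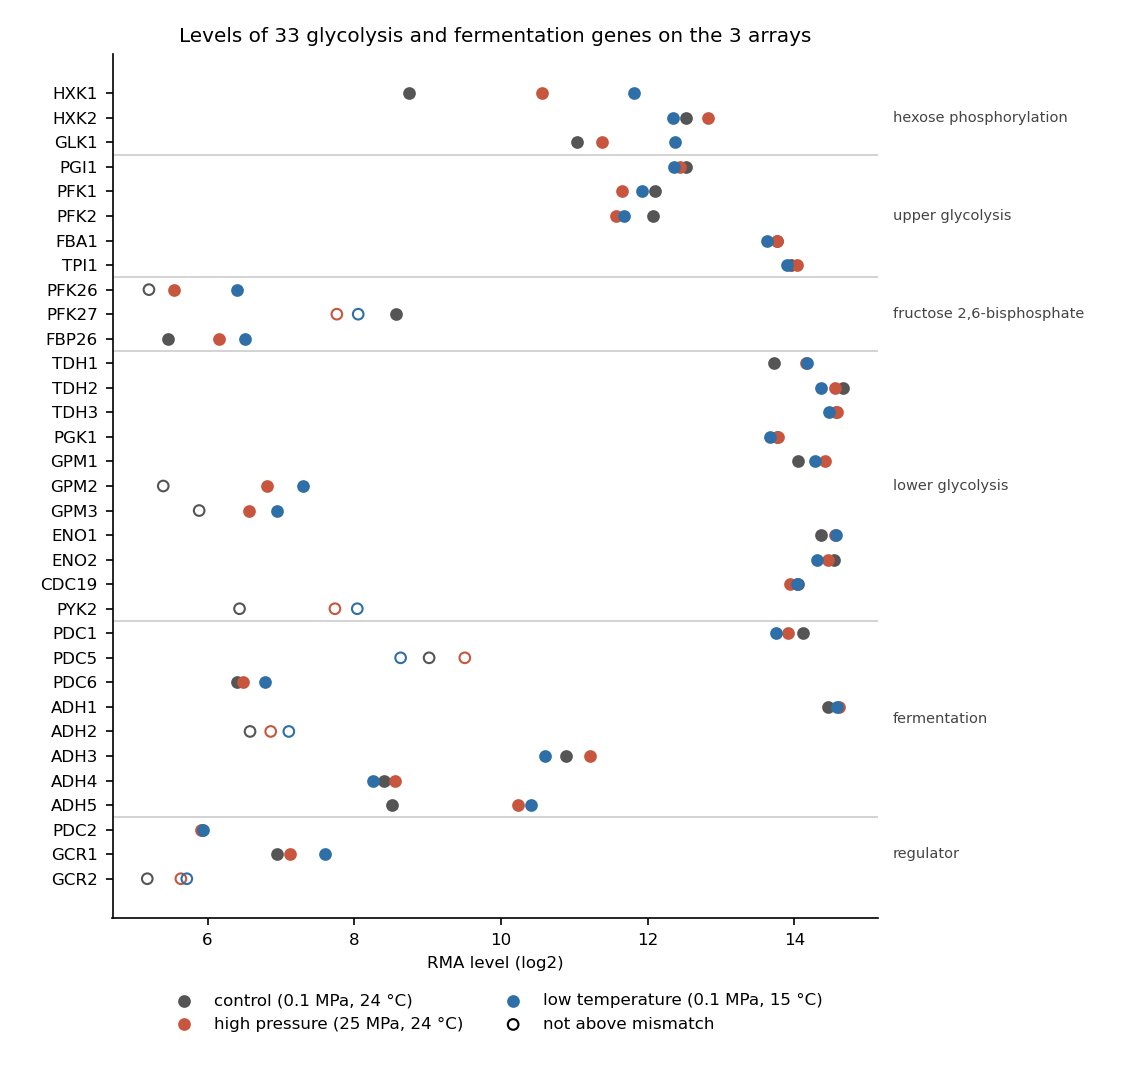
RMA levels (log2, x axis) of the 33 members, 1 point for each of the 3 arrays, grouped by step, with open points where the perfect-match probes did not exceed their mismatch probes. The points of TDH3, PGK1 and CDC19 lie close together, while those of HXK1 run from 8.75 on the control array to 11.81 in the cold.

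A level was taken as above mismatch when its 15 probe pairs differed by more than 0 on average, at the 5% level of a one-sided limit. Of the 33 members, 25 were above mismatch on all 3 arrays and 4 (PYK2, PDC5, ADH2 and GCR2) on none. Where the dimmer of the compared levels was not above mismatch, the ratio is given as "at least", and where neither was, no fold is given. Such a fold is an RMA ratio whose dim level may be lower than read. It is not a bound over other scalings, some of which gave smaller ratios. The design text of the series takes a 1.5-fold difference as its limit. A member counted as higher or lower beyond that limit if the brighter of its levels reached the 25th percentile of that array. The free-text descriptions of the samples name another strain and temperature than the titles. Of the genes with deletions in BY4742, LYS2, URA3 and LEU2 were above mismatch on no array. HIS3 was above it on all 3, at 7.12, 8.34 and 7.75. MF(ALPHA)1 and STE3, specific to alpha cells, were above mismatch on all 3 arrays, and so was STE2, specific to a cells, at 5.38, 5.83 and 5.70, while MFA2, also of a cells, was on none. The perfect-match intensity of STE2 was 136, 138 and 130, little over its mismatch intensity of 110, 94 and 85. Whether the HIS3 probes lie in the deleted stretch was not tested. These markers thus do not settle which strain was used. The median RMA level over all rows was 6.43, 6.77 and 6.98 on the 3 arrays. By the same 5% limit, 54.2%, 62.4% and 60.5% of rows were above mismatch.

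Under pressure 6 of the 32 members that passed the level filter were higher (18.8%) and 1 was lower (3.12%), where 28.1% of all genes counted were higher and 12.3% lower. PFK26 was the member under the filter. The median log2 ratio of the 33 members was 0.18, against 0.13 over all genes. In the cold 9 of 32 were higher (28.1%) and 0 lower, where 34.8% of all genes were higher and 9.63% lower, and GCR2 was under the filter. The median there was 0.012 against 0.26 over all genes. By RMA neither share of higher members exceeded that of all genes. These splits rest on the scaling: with each array centred on its median, 4 members were higher and 3 lower under pressure, and 6 higher and 15 lower in the cold. Of all genes counted, 846 were then higher and 1233 lower of 4934 under pressure, and 723 and 1502 of 4942 in the cold. That centring moves the median of all genes to -0.21 under pressure and to -0.29 in the cold.

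**Figure D2:**
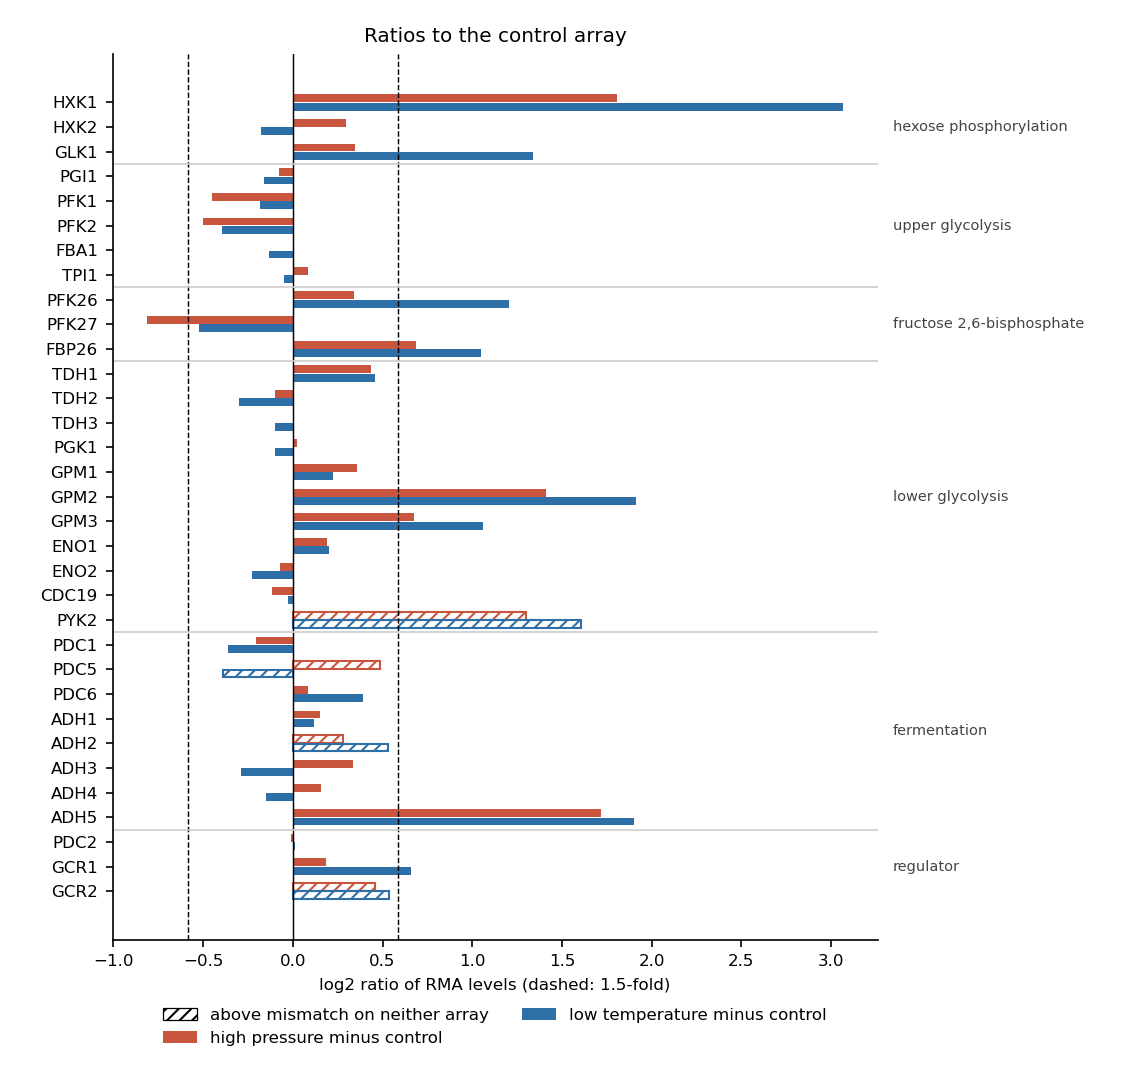
Log2 ratios of RMA levels (x axis) of each member, high pressure minus control and low temperature minus control, 1 bar per comparison, with dashed lines at 1.5-fold and hatched bars where neither array was above mismatch. HXK1, GPM2, PYK2 and ADH5 pass the upper line in both comparisons, and PFK27 the lower line under pressure.

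The first step, the phosphorylation of glucose, differed between its 3 enzymes. HXK2 (YGL253W), the main hexokinase on glucose and also a regulator of glucose repression, lay at log2 levels of 12.52 in the control, 12.81 under pressure and 12.34 in the cold. HXK1 (YFR053C), a hexokinase that glucose represses, lay at 8.75, 10.56 and 11.81. GLK1 (YCL040W), a glucokinase that takes glucose but not fructose, lay at 11.04, 11.38 and 12.37. HXK2 was thus within 1.5-fold of the control, HXK1 differed past it between every pair of arrays, and GLK1 was apart in the cold. The log2 ratio of HXK1 was 1.81 under pressure and 3.06 in the cold. GLK1 had 0.35 and 1.34, the latter a 2.53-fold higher level. HXK1 was 2.39-fold lower under pressure than in the cold, with a log2 ratio of -1.26, and GLK1 was 1.99-fold lower at -0.99.

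The mean perfect-match intensity, a linear brightness that RMA does not enter, showed the same order for HXK1, with 668 in the control, 2108 under pressure and 6537 in the cold. Its mismatch intensity was 133, 141 and 219. GLK1 had perfect-match intensities of 2196, 3431 and 8198, so that the cold array was the brightest for it too. HXK2 had 4029, 6094 and 5650, whose log2 ratio of 0.60 under pressure lies just past 1.5-fold, while the RMA ratio of 0.30 does not.

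The next enzymes act as single forms or fixed subunits, and all 5 were inside 1.5-fold on the RMA scale. PGI1, phosphoglucose isomerase, lay at 12.52, 12.44 and 12.36 in the control, under pressure and in the cold. PFK1 and PFK2, the alpha and beta subunits of phosphofructokinase, had the lowest ratios of this group under pressure, -0.45 and -0.50, and -0.18 and -0.40 in the cold. PFK1 lay at 12.10, 11.65 and 11.92, and PFK2 at 12.07, 11.57 and 11.67. On this scale both subunits were highest on the control array and lowest under pressure. With perfect-match intensities their ratios under pressure were -0.047 and -0.064, and with the arrays centred they were -0.79 and -0.84. In the cold the direction turned with perfect-match intensities, to 0.46 for PFK1 and 0.53 for PFK2, so that the cold array was then the highest. The median over all genes by that measure was 0.41 in the cold. FBA1, the aldolase, lay at 13.76, 13.77 and 13.62, and TPI1, triose phosphate isomerase, at 13.95, 14.03 and 13.90.

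Fructose 2,6-bisphosphate activates phosphofructokinase, and its 3 genes did not share a direction. PFK26 and PFK27 encode kinases that make it, and FBP26 a phosphatase that removes it. PFK26 lay at 5.20 in the control, 5.54 under pressure and 6.41 in the cold, and was not above mismatch in the control. Its level was at least 2.31-fold higher in the cold than in the control by RMA, with a log2 ratio of 1.21. With the arrays centred that ratio was 0.66. PFK27 lay at 8.57, 7.76 and 8.05, and only the control array was above mismatch. It was at least 1.75-fold lower under pressure, at -0.81, the only member counted as lower against the control, and had -0.52 in the cold, inside 1.5-fold. FBP26 lay at 5.46, 6.15 and 6.51, which is 1.61-fold higher under pressure and 2.07-fold higher in the cold. The control array was thus lowest for PFK26 and FBP26 and highest for PFK27. The FBP26 ratios fell inside 1.5-fold with the arrays centred, at 0.35 and 0.50.

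The lower part of glycolysis, from glyceraldehyde-3-phosphate to pyruvate, holds the brightest members. TDH3, the main glyceraldehyde-3-phosphate dehydrogenase, lay at 14.57 in the control, 14.58 under pressure and 14.47 in the cold. TDH2, its close relative, lay at 14.66, 14.56 and 14.36. TDH1, a form known from slow growth and stress, lay at 13.72, 14.15 and 14.17. On the RMA scale the control array was thus the lowest for TDH1, with log2 ratios of 0.44 and 0.46, and the highest for TDH2, though all of these ratios were inside 1.5-fold. PGK1, phosphoglycerate kinase, lay at 13.76, 13.78 and 13.66, all inside 1.5-fold.

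GPM1, the phosphoglycerate mutase that does the work of this step, lay at 14.05, 14.41 and 14.28, inside 1.5-fold. Its homologues GPM2 and GPM3, which are thought not to replace it, were dim in the control and not above mismatch there. GPM2 (YDL021W) lay at 5.40, 6.81 and 7.31. It was at least 2.66-fold higher under pressure and at least 3.76-fold higher in the cold. GPM3 (YOL056W) lay at 5.89, 6.56 and 6.95, at least 1.60-fold and at least 2.09-fold higher. For both homologues the order of the arrays was control, pressure, cold. The GPM3 ratios were inside 1.5-fold with the arrays centred, at 0.34 and 0.51. The probe values of GPM2 were uneven, with a coefficient of variation over its 15 perfect-match probes of 1.36 under pressure and 1.40 in the cold, against 0.56 in the control.

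ENO1, the enolase used more on poor carbon sources, lay at 14.36, 14.55 and 14.57, and ENO2, the enolase induced by glucose, at 14.54, 14.46 and 14.31. By RMA ENO1 was lowest and ENO2 highest on the control array, with ratios inside 1.5-fold, the largest in size being -0.23 for ENO2 in the cold. CDC19, the main pyruvate kinase, lay at 14.05, 13.94 and 14.03. PYK2 (YOR347C), a second pyruvate kinase that glucose represses, lay at 6.44, 7.74 and 8.04, above mismatch on no array. Its log2 ratios of 1.30 and 1.60 count it as higher in both comparisons, but its mean mismatch intensity was 245, 243 and 365 beside perfect-match intensities of 218, 341 and 434. On the control array its mismatch probes were thus brighter than its perfect-match probes.

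In fermentation the main enzymes again lay near the control. PDC1, the main pyruvate decarboxylase, lay at 14.12, 13.91 and 13.75, and ADH1, which makes most of the ethanol, at 14.46, 14.61 and 14.58. PDC6, a minor decarboxylase, lay at 6.40, 6.48 and 6.79, inside 1.5-fold. PDC5, the decarboxylase known to replace PDC1 when that is lost, lay at 9.02, 9.51 and 8.63, above mismatch on no array. Its ratio of pressure to cold counts as higher at 0.88 by RMA but is -0.051 with perfect-match intensities. ADH2, which glucose represses and which oxidizes ethanol, lay at 6.58, 6.86 and 7.11, also above mismatch on no array. PDC5 and ADH2 had the most uneven probes of all members, with coefficients of variation of 2.48, 2.12 and 2.70 for PDC5 and of 2.62, 2.56 and 2.57 for ADH2. The median over the 33 members was 0.72, 0.75 and 0.74. PDC5 is close in sequence to PDC1 and ADH2 to ADH1, and whether some of their probes read the bright relative was not tested.

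ADH5 (YBR145W) stood apart from the other alcohol dehydrogenases. It lay at 8.51 in the control, 10.23 under pressure and 10.41 in the cold, above mismatch on all 3 arrays, with log2 ratios of 1.72 and 1.90. Its perfect-match intensity was 638, 1767 and 2576, beside mismatch intensities of 202, 221 and 261. Both treated arrays were thus well over the control, and they differed from each other by 0.18, inside 1.5-fold. ADH3, the mitochondrial form, lay at 10.88, 11.22 and 10.59. It was 1.54-fold higher under pressure than in the cold, but its ratio was 0.14 with perfect-match intensities. ADH4, a form unlike the others in sequence, lay at 8.40, 8.56 and 8.25.

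The 3 activators showed small ratios. GCR1, which drives glycolytic genes together with Rap1, lay at 6.94, 7.13 and 7.60, and was 1.58-fold higher in the cold. That value fell to 0.11 on the log2 scale with the arrays centred. GCR2, its partner, lay at 5.18, 5.64 and 5.72, above mismatch on no array. PDC2, an activator of pyruvate decarboxylase genes, lay at 5.93, 5.92 and 5.94, nearly the same on all 3 arrays.

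High pressure was also set directly against low temperature. Higher under pressure were 2 of 32 members, PDC5 and ADH3, where 4.26% of all genes counted were higher. Lower were 3, HXK1, GLK1 and PFK26, where 10.1% of all genes were lower. PFK26 had a log2 ratio of -0.87, 1.82-fold lower under pressure. The 3 lower members stayed past 1.5-fold under each of perfect-match intensities, centred arrays and quantile-normalized gene values, whereas neither higher member was past it with perfect-match intensities. The median log2 ratio of the 33 members was -0.022, against -0.12 over all genes.

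Major and minor forms were then compared by their ratios, since levels of different probe sets are not on 1 scale. For 11 pairs, the log2 ratio of the minor form was taken from that of the major form. A negative value thus means that the minor form gained. HXK2, TDH3, GPM1 and PDC1 recur among the pairs, which are therefore not separate results. No share over all genes was taken for such pairs. Of single genes, 28.1% were higher past 1.5-fold under pressure and 34.8% in the cold, and dim genes had higher ratios than bright ones, as given below. Under pressure the minor form gained past 1.5-fold in 4 pairs and the major form in 0, but in 1 of the 4 alone, HXK2 and HXK1, was the minor form above mismatch on both arrays. That pair had -1.51. The other 3 values were -1.41 for CDC19 and PYK2, -1.05 for GPM1 and GPM2, and -0.69 for PDC1 and PDC5. They are differences of RMA levels that rest on a level not above mismatch. GPM2 was not above mismatch in the control, and PYK2 and PDC5 were above it on neither array. In the cold the minor form gained in 6 pairs and the major form in 0, and in 3 of the 6 it was above mismatch on both arrays. Of these, HXK2 and HXK1 had -3.24, a 9.47-fold change of their proportion, HXK2 and GLK1 had -1.52, and PDC1 and PDC6 had -0.76. The other 3 rest on a minor form not above mismatch in the control, with -1.68 and -0.84 for GPM1 with GPM2 and GPM3, and -1.63 for CDC19 and PYK2. With perfect-match intensities 2 of the 4 pairs under pressure stayed past 1.5-fold, those of HXK1 and GPM2, and 3 of the 6 in the cold, those of HXK1, GLK1 and GPM2. CDC19 and PYK2 then had -0.35 and -0.31, and PDC1 and PDC6 had -0.23 in the cold.

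**Figure D3:**
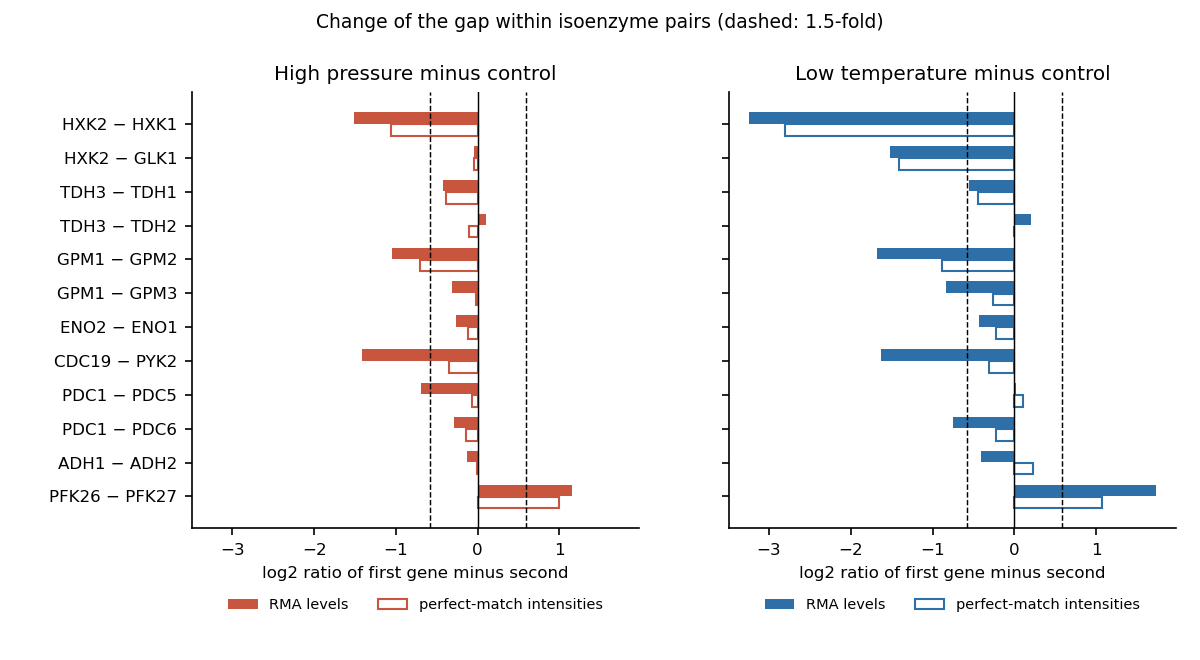
Log2 ratio of the first gene of a pair minus that of the second (x axis), for high pressure minus control and low temperature minus control, with filled bars for RMA levels and open bars for perfect-match intensities, and dashed lines at 1.5-fold. The pair of HXK2 and HXK1 has the longest bar of both panels, -1.51 under pressure and -3.24 in the cold, while TDH3 with TDH2 stays near 0.

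The pairs in which both forms were among the 12 brightest members had values inside 1.5-fold. TDH3 against TDH1 had -0.43 under pressure and -0.56 in the cold, ENO2 against ENO1 -0.26 and -0.43, and TDH3 against TDH2 0.11 and 0.20. In the pair of PFK26 and PFK27, which has no major form, PFK26 gained by 1.15 and 1.73, and by 0.99 and 1.07 with perfect-match intensities.

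The control level of a gene moved with its ratio over the whole array, as the plot of ratios by control level shows. That level also enters both ratios, so error in it would raise the ratios of dim genes and lower those of bright ones. The part of such error in the trend was not tested. The 126 genes at or above the 98th percentile of the control array had a median log2 ratio of -0.21 under pressure and -0.12 in the cold. Genes under the 50th percentile had 0.19 and 0.37. A dim minor form set against a bright major form is shifted in the same direction by this difference, and its part in the pair values was not tested. Of the 126 brightest genes, 15.1% lay past 1.5-fold under pressure and 11.9% in the cold. On the RMA scale the 12 members among them (FBA1, TPI1, TDH1, TDH2, TDH3, PGK1, GPM1, ENO1, ENO2, CDC19, PDC1 and ADH1) had 0 past 1.5-fold in either comparison. Their log2 ratios ran from -0.21 to 0.44 under pressure (median 0.015) and from -0.36 to 0.46 in the cold (median -0.073). With perfect-match intensities 1 of the 12, TDH1, was higher under pressure, and 7 were higher in the cold (TPI1, TDH1, PGK1, GPM1, ENO1, CDC19 and ADH1), and the 12 had a median of 0.60. With the arrays centred 0 were past 1.5-fold under pressure, and 7 were lower in the cold (FBA1, TPI1, TDH2, TDH3, PGK1, ENO2 and PDC1), and the median of the 12 was -0.62. In the cold the log2 ratios of all 12 were positive with perfect-match intensities, from 0.32 to 0.92, and negative with the arrays centred, from -0.91 to -0.092, so no direction can be given for any of them. Their mean perfect-match intensities, over the 12 members, ran from 9933 to 21304 in the control, from 12397 to 25461 under pressure and from 15042 to 30724 in the cold. Whether single probes were near the top of the scanner's range was not tested, since the files give means over probes.

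**Figure D4:**
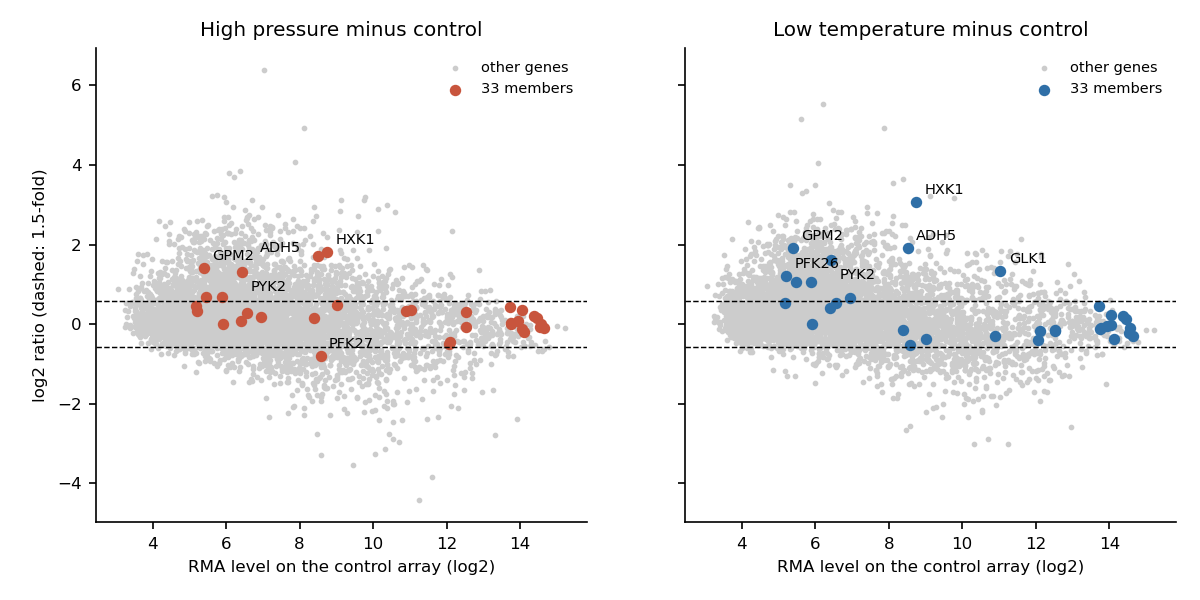
Log2 ratio (y axis) against the RMA level on the control array (x axis) for all genes in grey and the 33 members in colour, with dashed lines at 1.5-fold. The 12 brightest members lie between the dashed lines in both panels on this RMA scale, and HXK1 lies far above them at 1.81 under pressure and 3.06 in the cold.

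Other sources of the ratio were set beside the RMA values for each member counted. HXK1, ADH5, GPM2 and PYK2 stayed higher past 1.5-fold under pressure, and PFK27 lower, in each of 3 alternatives: perfect-match intensities, centred arrays and quantile-normalized gene values. In the cold 6 of 9 did, namely HXK1, GLK1, PFK26, GPM2, PYK2 and ADH5. None of the 3 alternatives takes the mismatch probes into account. PYK2 was above mismatch on no array, GPM2 and PFK26 were not above it in the control, and PFK27 was above it only there. FBP26 and GPM3 under pressure, and GCR1 in the cold, were inside 1.5-fold in all 3 alternatives. In the cold FBP26 and GPM3 were past it with perfect-match intensities alone. The log2 ratio of HXK1 in the cold ran from 2.52 to 3.29 over the 3, and was 3.56 from the difference of perfect match and mismatch. In the cold ADH5 ran from 1.35 to 2.01 and was 2.41 from that difference. By that difference FBP26 had 1.61 under pressure and 2.12 in the cold, and GCR1 had 1.41 in the cold, all past 1.5-fold.

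**Figure D5:**
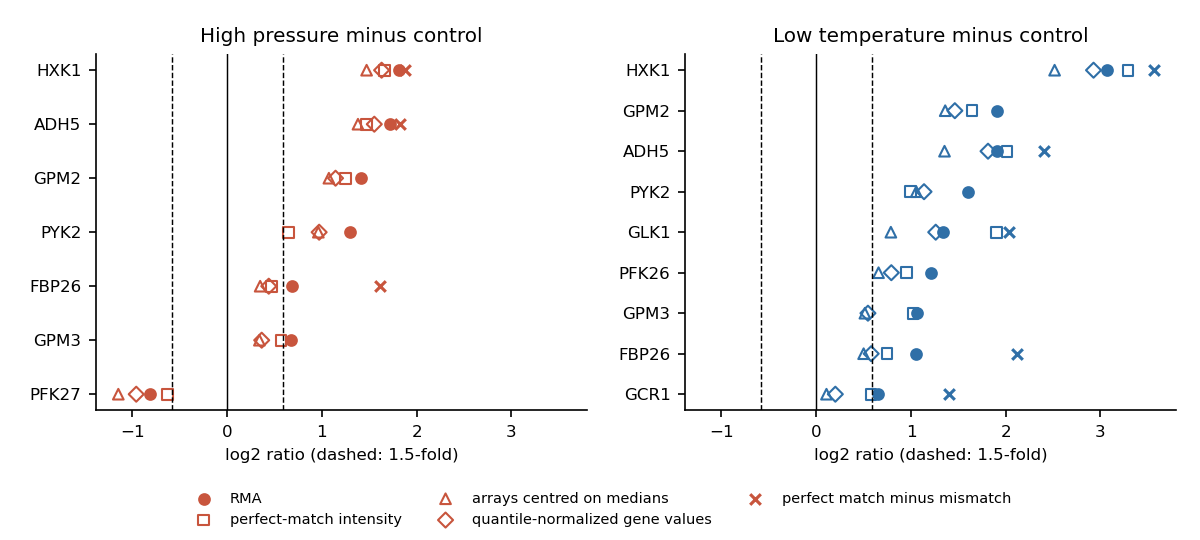
Log2 ratios (x axis) of the members counted as higher or lower against the control, 1 symbol per source of the level, with dashed lines at 1.5-fold; crosses are drawn only where both arrays were above mismatch. All symbols of HXK1, ADH5 and GPM2 lie past the upper line, whereas GCR1 in the cold runs from 0.11 to 1.41.

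Genes beside the route were read from lists by function, to be set beside the 28.1% of all genes higher and 12.3% lower under pressure, and the 34.8% higher and 9.63% lower in the cold. Each was also read in the same 3 alternatives. EMI2, a close relative of GLK1, lay at 8.09, 10.10 and 10.62, not above mismatch in the control. It was at least 4.03-fold higher under pressure and at least 5.78-fold higher in the cold by RMA. With perfect-match intensities its log2 ratios were 1.50 and 2.17, against 2.01 and 2.53 by RMA. Of 12 regulators of glycolysis and glucose repression, 4 were higher and 1 lower under pressure, and 4 higher and 0 lower in the cold, shares near those of all genes. In each comparison 1 of the higher genes was above mismatch on neither array, TYE7 under pressure and SNF3 in the cold. GLC7, the catalytic subunit of protein phosphatase 1, was higher by 2.09 and 1.73 on the log2 scale, and SNF1, the kinase that acts when glucose is low, by 1.16 and 1.58. Both were past 1.5-fold in all 3 alternatives, but SNF1 was not above mismatch on the cold array. RAP1, the partner of Gcr1, had -0.73 for pressure against cold, and MSN2, a stress activator, -0.48. The RAP1 ratio was inside 1.5-fold in each alternative. Of 6 glycerol genes, 2 were higher and 1 lower under pressure and 2 higher and 0 lower in the cold. GPD1, which makes glycerol-3-phosphate, was 1.81-fold and 1.91-fold higher, and its relative GPD2 had 0.65 and 0.092, with 0.56 for pressure against cold. The phosphatase gene GPP2 was higher by 0.90 in the cold, and its relative GPP1, the lower gene, had -0.59 under pressure and -0.57 for pressure against cold. With the arrays centred none of GPD1, GPD2 and GPP2 was past 1.5-fold against the control, and with perfect-match intensities GPP1 under pressure was not.

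Of 7 genes of the acetaldehyde and acetate branch, 0 were higher and 4 lower under pressure, and 2 higher and 2 lower in the cold. ALD6 and ALD5, which oxidize acetaldehyde in cytosol and mitochondria, had log2 ratios in the cold of -0.92 and -0.99. With perfect-match intensities ALD6 turned to 0.096 and ALD5 had -0.14, where the median over all genes was 0.41. Of the 2 higher genes in the cold, ALD3 was inside 1.5-fold with the arrays centred and ACS1 was above mismatch on neither array. ALD3 and ALD4 had -1.47 and -1.14 under pressure. ALD3 was 4.63-fold lower under pressure than in the cold and ALD4 2.41-fold lower, and these ratios of both genes were past 1.5-fold in all 3 alternatives. Of 5 further alcohol dehydrogenases, 1 was higher and 3 lower under pressure, and 1 higher and 2 lower in the cold. SFA1, which also detoxifies formaldehyde, was 1.99-fold and 2.26-fold lower, and BDH1, a butanediol dehydrogenase, 0.93 in the cold. BDH2 had -0.99 under pressure and -1.02 for pressure against cold. With perfect-match intensities SFA1 in the cold was inside 1.5-fold, at -0.43, as was BDH1 with the arrays centred, at 0.38.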

How the data were processed

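Per the labels, the authors quantile-normalized the arrays and summarised probes by RMA, which the submitters' processing notes also name; the deposited values lie on a log2 scale. Background correction, version and whether the arrays were normalized together are not given in the sources used here. Quantile methods can hide or create a shift shared by most genes. The deposited per-array tables give, per the file headers, mean perfect-match, mismatch and difference intensity over 15 probe pairs, and a coefficient of variation, a score that is standard deviation over mean.

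Gene names came from the deposited tables; 104 rows of 51 repeated names were averaged, leaving 6284 of 6337 rows. Log2 ratios are differences between arrays. The limit for being above mismatch was a t value of 1.76 with 14 degrees of freedom. "At least" folds compare the bright level with the dim level itself, or with the lowest level above mismatch if that is higher. Members, lists and pairs were chosen with earlier results of these data known. All members were named, and of each other list the 2 largest ratios per comparison among genes above mismatch. Promoter and protein sequences were not used here, so the planned promoter motifs were not read. No p-value was computed. The counting was tested on simulated data with planted shifts far past the limit and little noise, which checks the code and not the calls made here. Alternatives were other sources of the level, scalings, filters and folds. Those for the other lists, and the check of minor forms against mismatch, were chosen after seeing the data. Names and locus tags were matched to RefSeq assembly R64, and all 33 members matched. Python 3.11.15, pandas 2.3.3, NumPy 2.4.6 and matplotlib 3.10.9 were used.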

Additional observations from a re-analysis of the deposited data

How the results depend on the processing

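Counts of members and medians were recomputed under 7 alternatives. With perfect-match intensities 16 members were higher in the cold, against 9, and 0 were higher under pressure than in the cold, against 2. Of all genes counted, 2265 of 4938 were then higher in the cold, and 84 of 4859 higher under pressure than in the cold. With the arrays centred on their medians 3 were lower under pressure, against 1, and 15 in the cold, against 0. Of all genes counted, 1233 of 4934 were then lower under pressure and 1502 of 4942 in the cold. With quantile normalization of the gene values 2 were lower in the cold and 1 was higher under pressure than in the cold. The counts over all genes were 975 of 4948 and 278 of 4833. At 2-fold 0 members were lower under pressure, and for pressure against cold 0 were higher and 1 lower. For pressure against cold, 1 member above mismatch was higher, and 0 without near-identical families. The log2 ratio in the cold turned positive past 1.5-fold with perfect-match intensities for TPI1 (0.60), PGK1 (0.60), CDC19 (0.68) and ADH3 (0.61), and for the same genes with the difference of perfect match and mismatch, chosen after seeing the data (0.59, 0.61, 0.69 and 0.67). PDC5 for pressure against cold turned to -0.051 with perfect-match intensities. The cause of these changes was not tested. The median ratio of the members ran from -0.15 to 0.32 under pressure and from -0.54 to 0.58 in the cold. Over all genes the share of higher among higher and lower genes was 69.6% under pressure and 78.3% in the cold by RMA. With the arrays centred it was 40.7% and 32.5%. With perfect-match intensities it was 82.2% and 95.2%, and the median log2 ratio of all genes was 0.15 and 0.41.

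Rows that carry the same gene name, among them Ty element reading frames, differed in log2 ratio by a median of 0.41 under pressure and 0.26 in the cold, and their 90th percentile was 1.00 and 0.79. These rows measure probe sets on 1 array and not cultures. No paired analysis was possible because each condition has 1 array. No replicate could be left out for the same reason. Signal over mismatch limits PFK26, PFK27, GPM2, GPM3, PYK2, PDC5, ADH2 and GCR2.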

Other observations

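Genes that draw on or feed glycolysis at other points were read from the same arrays, with the same count rule. Of 11 pentose phosphate genes, which make NADPH and ribose phosphate from glucose-6-phosphate, 7 were lower under pressure and 0 higher, where 12.3% of all genes were lower, and the list's median log2 ratio was -0.84 where all genes had 0.13. With perfect-match intensities 3 of the 7 (GND2, RKI1 and TKL2) were past 1.5-fold, and 1 of the 7, NQM1, was above mismatch on neither array. In the cold 5 were lower and 1 higher by RMA, where 9.63% of all genes were lower, but with perfect-match intensities 0 of these 5 were past 1.5-fold. TKL2, a minor transketolase, lay at 7.86 in the control, 5.81 under pressure and 8.01 in the cold, and was not above mismatch under pressure. It was at least 4.14-fold lower under pressure than in the control and at least 4.59-fold lower than in the cold by RMA. With perfect-match intensities these log2 ratios were -1.28 and -1.56, against -2.05 and -2.20 by RMA. RKI1, ribose-phosphate isomerase, had -1.61 under pressure. GND2, the minor phosphogluconate dehydrogenase, had -1.69 for pressure against cold. SOL4, a phosphogluconolactonase, was higher by 1.28 in the cold, where RPE1, an epimerase, had -1.11 by RMA and -0.29 with perfect-match intensities.

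Of 7 genes of the pyruvate dehydrogenase complex and its kinases, 2 were higher and 0 lower in both comparisons with the control, shares near the 28.1% and 34.8% of all genes higher. PDX1, a further subunit, was above mismatch on no array. PKP2, a kinase of the complex, had log2 ratios of 0.76 under pressure and 0.83 in the cold by RMA, but 0.20 and 0.13 with perfect-match intensities and 0.42 and 0.28 with the arrays centred. PKP1 had -0.52 under pressure and -0.71 for pressure against cold. PDB1, a subunit of the complex, had -0.46 in the cold and 0.76 for pressure against cold. With perfect-match intensities these 4 values were 0.065, -0.34, 0.49 and 0.12, all inside 1.5-fold. Of 5 genes of gluconeogenesis, 1 was higher and 1 lower under pressure, and 0 higher and 2 lower in the cold. PYC1, a pyruvate carboxylase, lay at 7.30, 8.38 and 7.35, which is 2.11-fold higher under pressure than in the control and 2.04-fold higher than in the cold. Both of these PYC1 ratios were past 1.5-fold with perfect-match intensities, with centred arrays and with quantile-normalized values. MDH2, a malate dehydrogenase, had -0.67 and -1.18, with 0.52 for pressure against cold, and PYC2 had -0.70 in the cold. With perfect-match intensities MDH2 had -0.51, -0.41 and -0.10, all inside 1.5-fold, and PYC2 turned to 0.056. The median over all genes in the cold was 0.41 by that measure.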
